A study of Homo sapiens with 12 samples.

Results

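The genes described here are 10 chaperones and thiol-disulfide isomerases of the endoplasmic reticulum (ER) in RD cells, an established human line from an embryonal rhabdomyosarcoma, a muscle-like soft tissue tumour: HSPA5, HYOU1, HSP90B1, CALR, PDIA3, PDIA4, PDIA6, TXNDC5, DNAJB9 and SDF2L1. They are 10 of the 61552 gene identifiers listed for each library, found by their symbols, and they were chosen by name with results of the comparison below already known. Those values were the difference between the siRNA groups, so the differences of the 10 genes are given as a description and no p is given for them. The cells carried an siRNA against EHMT1 (3 libraries), a histone methyltransferase also called GLP, or a scrambled siRNA (3 libraries), both delivered with Lipofectamine RNAiMAX, and RNA was taken after 48 h. Both groups share the same fusion-negative line and the transfection, and nothing in the labels says that the replicates were separate cultures, so the spread between them may be technical. The other 6 samples belong to an experiment with SOX8 siRNA and were not used here.

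Proteins that enter the secretory pathway fold inside the ER. There HSPA5 (BiP), an HSP70-type ATPase, holds unfolded chains, J-domain proteins such as DNAJB9 (ERdj4) deliver clients to it and nucleotide exchange factors such as HYOU1 release them. HSP90B1 (GRP94) is the HSP90 of the compartment, calreticulin (CALR) is a calcium-binding lectin that holds glycoproteins, and the protein disulfide isomerases form and rearrange disulfide bonds. When unfolded protein accumulates, the sensors ATF6, IRE1 (gene ERN1) and PERK (gene EIF2AK3) start the unfolded protein response, which is known to raise transcription of most of these chaperones through ER stress response elements in their promoters.

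Those elements were looked up because they are already known in promoters of such chaperones. The matches are therefore a description of sequence and not an independent test of the 10 genes. The promoters were RefSeq windows of 300 bases on GRCh38.p14, from 250 bases before to 50 after the gene start, and 9 of the 10 genes matched the table, PDIA3 not. The searched motifs, on both strands, were the ER stress response element (CCAAT, a gap of 9 bases, CCACG), its second form (ATTGG, a gap of 1 base, CCACG) and the XBP1-type element TGACGTGG. Each match is written 5′ to 3′ on the strand that carries it, with the searched letters in capitals and the gap in lower case.
HSPA5, chr9:125241391-125241409, minus strand: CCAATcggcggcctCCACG
HSP90B1, chr12:103930216-103930234, plus strand: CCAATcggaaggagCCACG
HSP90B1, chr12:103930321-103930339, minus strand: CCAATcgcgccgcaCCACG
CALR, chr19:12938384-12938402, minus strand: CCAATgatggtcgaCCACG
HYOU1, chr11:119057380-119057390, plus strand: ATTGGaCCACG
HYOU1, chr11:119057274-119057284, plus strand: ATTGGaCCACG
SDF2L1, chr22:21642114-21642124, minus strand: ATTGGtCCACG
HYOU1, chr11:119057386-119057393, minus strand: TGACGTGG

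The first form was present in 3 of the 9 promoters, those of HSPA5, HSP90B1 and CALR, and in 27 of all 35116 promoters in the table (0.0769%). The second form was present in 2 of the 9, HYOU1 and SDF2L1, and in 19 of all promoters (0.0541%). TGACGTGG was found in the HYOU1 promoter, where it shares 5 bases with a match of the second form, and in 0.729% of all promoters. The letters of these motifs were not in the windows of PDIA4, PDIA6, TXNDC5 and DNAJB9. Among the ER lists described below, the first form was also present in the promoters of ERO1B, CRELD2, CANX and XBP1. ERO1B was 1 of 9 thiol redox promoters, CRELD2 1 of 15 co-chaperone promoters and CANX 1 of 8 lectin and glycan folding promoters. XBP1 was 1 of 16 promoters of stress sensors and factors. The other ER lists held none, nor did 24 cytosolic and 8 mitochondrial chaperone promoters.

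The libraries held 40639655 to 47258481 gene counts, 20.01% to 21.21% of reads named no gene, and 9.94% to 10.33% fell where genes overlap and were counted for none. EHMT1 itself (ENSG00000181090) had 55.0 ± 2.26 CPM (counts scaled to a fixed library total with TMM factors) with EHMT1 siRNA and 139 ± 14.7 CPM with scrambled siRNA (SD, n = 3 each), a log2 fold change of -1.34 (edgeR adjusted p = 9.13e-09). Of 9 muscle and rhabdomyosarcoma markers, 6 were above 1 CPM in every library (MYOD1, MYOG, DES, PAX7, PAX3 and CHRNG) and 1 was at 0 in all (MYF5); the list summed to 579 to 631 CPM with EHMT1 siRNA and 537 to 646 CPM with scrambled siRNA. Of the 7 of them tested, CHRNG and PAX7 rose, by log2 changes of 0.83 and 0.28 (edgeR adjusted p = 1.32e-05 and 0.0058; PAX7 lost without EHMT1 siRNA replicate 3); their part in the results was not tested. The 4 markers each of epithelium, leukocytes, endothelium and fibroblasts held no gene above 1 CPM in every library and summed, per list, to at most 0.928 CPM in an EHMT1 siRNA library and 1.15 CPM in a scrambled library. Of 4 markers of plasma cells, a secretory type rich in ER, SDC1 alone passed 1 CPM and 1 was at 0 in all libraries. The list summed to 42.1 to 49.2 CPM with EHMT1 siRNA and 59.2 to 62.3 CPM with scrambled siRNA. SDC1 was called lower, at a log2 change of -0.43 (edgeR adjusted p = 0.000442), whichever library was left out. The part of this list in the results was not tested. Scrambled replicate 2 lay furthest out on the first principal component, at 36.4, against 9.2 and 16.0 for the other scrambled libraries and -21.6 to -19.6 for the EHMT1 siRNA libraries.

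**Figure D1:**
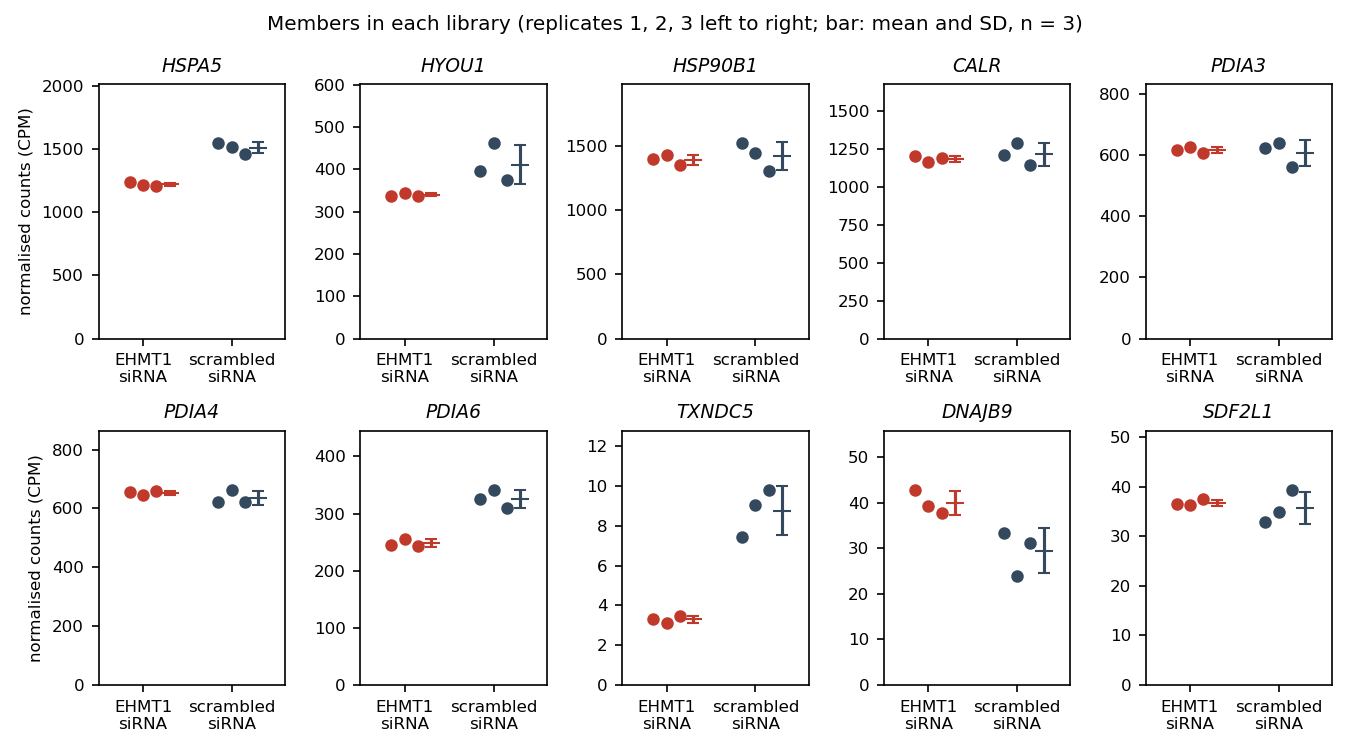
Normalised CPM of the 10 ER folding genes (vertical axes from 0) in the EHMT1 siRNA and scrambled siRNA libraries; points are replicates 1, 2 and 3 from left to right and bars are the mean and SD of 3 libraries. The groups stand apart for HSPA5, HYOU1, PDIA6, TXNDC5 and DNAJB9 and overlap for the other 5.

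All 10 genes passed the filter on low counts. With EHMT1 siRNA, 4 of them were lower (HSPA5, HYOU1, PDIA6 and TXNDC5), 1 was higher (DNAJB9) and 5 were not called (HSP90B1, CALR, PDIA3, PDIA4 and SDF2L1), at an adjusted p under 0.05 over all genes (edgeR's quasi-likelihood test). Of the 18646 genes tested, 12.4% were called, 6.54% lower and 5.81% higher, and of the 6146 genes at least as abundant as DNAJB9, 18.2% were called. The groups of libraries did not overlap for the same 5 genes, against 30.9% of all genes tested. The median log2 change of the 10 was -0.03, beside 0.00 over all genes tested, and the median absolute change was 0.16, beside 0.15. Because the genes were chosen with this comparison known, nothing is read from these counts. Together the 10 genes took 0.58%, 0.58% and 0.572% of gene counts in the EHMT1 siRNA libraries, against 0.626%, 0.625% and 0.593% in the scrambled libraries. In a cell line as in any bulk sample, fewer cells with a transcript and less of it per cell cannot be told apart.

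The central chaperone, HSPA5 (ENSG00000044574), had 1236.5, 1213.8 and 1210.8 CPM in the EHMT1 siRNA libraries, against 1546.5, 1518.9 and 1460.3 CPM in the scrambled libraries. The lowest scrambled library lay above every EHMT1 siRNA library, and the spread within each group was small next to the gap. The mean with EHMT1 siRNA was 80.9% of that with scrambled siRNA, a log2 fold change of -0.31 (SE 0.055), and it was called whichever library was left out. HYOU1 (ENSG00000149428), the large HSP70 relative that acts as nucleotide exchange factor for HSPA5, had 338, 344 and 338 CPM with EHMT1 siRNA, against 397, 462 and 374 CPM with scrambled siRNA. The groups did not overlap, but the scrambled libraries were spread widely, with replicate 2 well above the others. The log2 fold change was -0.27 (SE 0.069), and omitting replicate 1, 2 or 3 of EHMT1 siRNA each ended the call, at log2 values of -0.27, -0.28 and -0.27.

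DNAJB9 (ENSG00000128590), the J-domain protein that binds HSPA5 and is known to hold the sensor IRE1 in check, went the other way. It had 42.9, 39.3 and 37.8 CPM with EHMT1 siRNA, against 33.4, 24.0 and 31.1 CPM with scrambled siRNA. Every EHMT1 siRNA library was above every scrambled one, and scrambled replicate 2 was the lowest of all. The mean stood at 135.6% of scrambled, a log2 fold change of 0.44 (SE 0.095), between 0.31 and 0.55 over all alternative settings. SDF2L1 (ENSG00000128228), a small ER protein that forms a complex with J-domain proteins, had 36.4, 36.3 and 37.5 CPM with EHMT1 siRNA, against 32.9, 34.8 and 39.4 CPM with scrambled siRNA. The EHMT1 siRNA libraries lay inside the scrambled range, and the log2 fold change was 0.04, with a 95% interval of -0.11 to 0.19.

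The other abundant chaperones gave overlapping groups. HSP90B1 (ENSG00000166598) had 1401.8, 1429.6 and 1351.7 CPM with EHMT1 siRNA, against 1524.3, 1447.2 and 1308.1 CPM with scrambled siRNA, the EHMT1 siRNA libraries all within the scrambled range. Its log2 fold change was -0.03, with a 95% interval of -0.17 to 0.10. CALR (ENSG00000179218) had 1200.4, 1159.8 and 1187.2 CPM with EHMT1 siRNA, against 1210.5, 1286.4 and 1139.6 CPM with scrambled siRNA. Again the scrambled range enclosed the other group, and the log2 fold change was -0.04 (95% interval -0.16 to 0.09).

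Among the disulfide isomerases, PDIA6 was lower and PDIA3 and PDIA4 were not called. PDIA6 (ENSG00000143870), an isomerase that works with HSPA5, had 245, 256 and 244 CPM with EHMT1 siRNA, against 326, 342 and 309 CPM with scrambled siRNA. The groups were well apart, the mean with EHMT1 siRNA being 76.2% of that with scrambled siRNA, a log2 fold change of -0.39 (SE 0.057) that was called whichever library was left out. PDIA3 (ENSG00000167004, ERp57), the partner of calreticulin and calnexin on glycoproteins, had 616, 627 and 606 CPM with EHMT1 siRNA, against 624, 640 and 561 CPM with scrambled siRNA. PDIA4 (ENSG00000155660, ERp72) had 655, 646 and 658 CPM with EHMT1 siRNA, against 622, 664 and 621 CPM with scrambled siRNA. For both, the groups overlapped. The log2 fold changes were 0.02 for PDIA3 (95% interval -0.11 to 0.15) and 0.04 for PDIA4 (95% interval -0.08 to 0.15).

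TXNDC5 (ENSG00000239264, ERp46), an isomerase with several thioredoxin-like domains, had 3.31, 3.11 and 3.49 CPM with EHMT1 siRNA, from 140, 129 and 143 reads, against 7.42, 9.04 and 9.82 CPM with scrambled siRNA, from 347, 361 and 417 reads. The mean with EHMT1 siRNA was 37.7% of that with scrambled siRNA, a log2 fold change of -1.40 (SE 0.128), called whichever library was left out. These values cover little of the transcript. In GENCODE 29, which may differ from the annotation used for counting, the read-through gene BLOC1S5-TXNDC5 shares 89.7% of the bases of the longest TXNDC5 transcript, including 9 of its 10 exons, and the remaining exon holds 301 bases. A read that touches exons of both genes is counted for neither, and BLOC1S5-TXNDC5 had 0 counts in all 6 libraries. That allows up to 3 counts per library of reads that touch no other gene. It does not bound the level of the read-through transcript, whose shared reads were not counted. Of the strand-assigned counts of TXNDC5, 23.1% to 37.2% lay in the first strand column with EHMT1 siRNA and 24.7% to 28% with scrambled siRNA, against 3.90% to 5.89% for HSPA5 over all 6 libraries. The TXNDC5 count therefore rests on the unshared exon and on sequence outside that transcript, in part with reads of the opposite strand, and neither the level of the whole transcript nor its change was measured. BLOC1S5, the upstream gene, had 6.50 ± 0.788 CPM with EHMT1 siRNA and 7.14 ± 0.354 CPM with scrambled siRNA (SD, n = 3 each), a log2 fold change of -0.14, not called (edgeR adjusted p = 0.499); it was named after its values were seen.

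**Figure D2:**
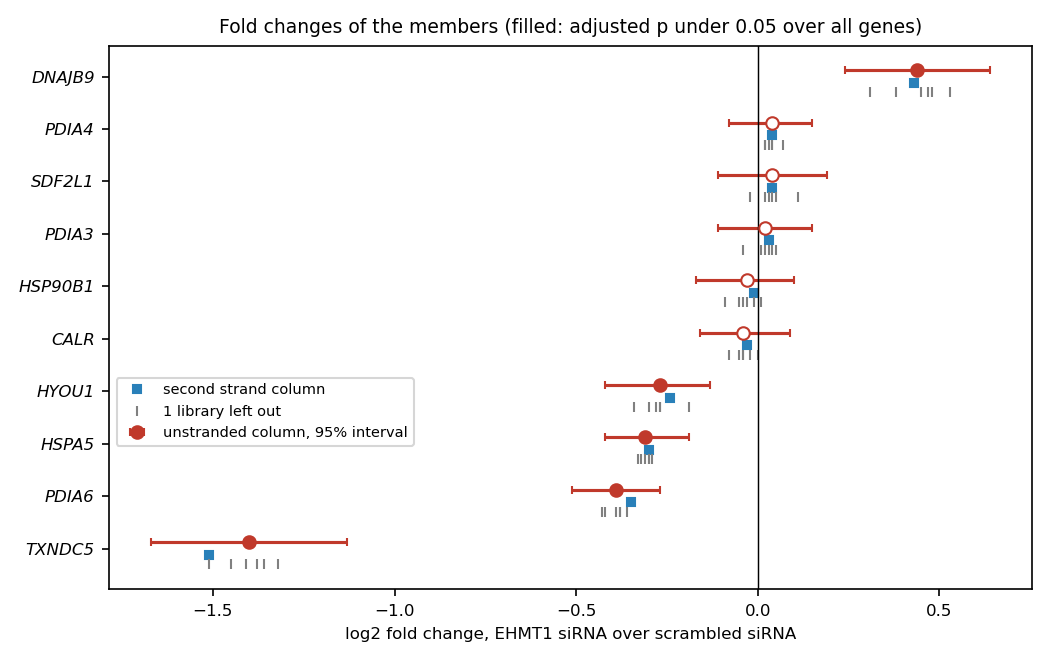
Log2 fold change of each gene, EHMT1 siRNA over scrambled siRNA: circles with 95% intervals are from the unstranded counts (filled where called over all genes), squares from the second strand column, ticks from fits with 1 library left out. TXNDC5 lies at -1.40, PDIA6, HSPA5 and HYOU1 between -0.39 and -0.27, DNAJB9 at 0.44, and the other 5 within 0.04 of 0.

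Overlapping genes on the other strand also took reads from several of the 10, and the strand columns show this in part. The ratios below set second strand beside unstranded counts, so they also leave out reads in the first strand column. The second strand column held 87.1% to 89.0% of strand counts. PDIA6, of whose exon bases 25.2% overlap ATP6V1C2, had 1.51 times as many counts in that column as in the unstranded one. In the second strand column PDIA6 stood at 382 ± 5.34 CPM with EHMT1 siRNA and 486 ± 7.94 CPM with scrambled siRNA (SD, n = 3 each), a log2 fold change of -0.35. The ratio of second strand to unstranded counts was 1.20 for HSP90B1, 1.16 for PDIA3, 1.15 for CALR and 1.12 for HYOU1, 0.73 for TXNDC5 and 0.83 to 0.97 for the other 4. The same 5 genes were called in that column with the same directions, at -0.30 for HSPA5, -0.24 for HYOU1, -1.51 for TXNDC5 and 0.43 for DNAJB9. In the first strand column, which held few of the reads, TXNDC5 at -1.11 was the only 1 of the 10 called, and DNAJB9 stood at 0.55, HSPA5 at -0.33, PDIA6 at -0.39 and HYOU1 at -0.28.

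Levels were compared between genes only after division by exon length, as CPM per kilobase, and TXNDC5 was left out because most of its length could not be counted. In the unstranded counts the order of the other 9 was the same in both groups: CALR, HSPA5, HSP90B1, PDIA4, PDIA3, PDIA6, HYOU1, SDF2L1 and DNAJB9, and no library ranges of neighbours in this order overlapped. CALR stood at 436 ± 7.64 CPM per kilobase with EHMT1 siRNA and 447 ± 27.1 with scrambled siRNA (SD, n = 3 each). HSPA5 stood at 312 ± 3.6 with EHMT1 siRNA and 386 ± 11.3 with scrambled siRNA. DNAJB9 was far lower, at 14.1 ± 0.926 CPM per kilobase with EHMT1 siRNA and 10.4 ± 1.72 with scrambled siRNA. The places of HSPA5 and HSP90B1 depended on the column and the length. In the second strand column, an alternative chosen after seeing the data, HSP90B1 stood at 359 ± 8.74 CPM per kilobase with EHMT1 siRNA and 361 ± 26.0 with scrambled siRNA. HSPA5 stood there at 298 ± 3.23 with EHMT1 siRNA and 368 ± 11.8 with scrambled siRNA, so HSP90B1 ranked above it with EHMT1 siRNA, while their library ranges overlapped with scrambled siRNA. With the longest transcript as the length of the unstranded counts, HSP90B1 ranked above HSPA5 in both groups, at 470 against 386 CPM per kilobase in scrambled libraries. The other 7 kept their places in both alternatives.

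**Figure D3:**
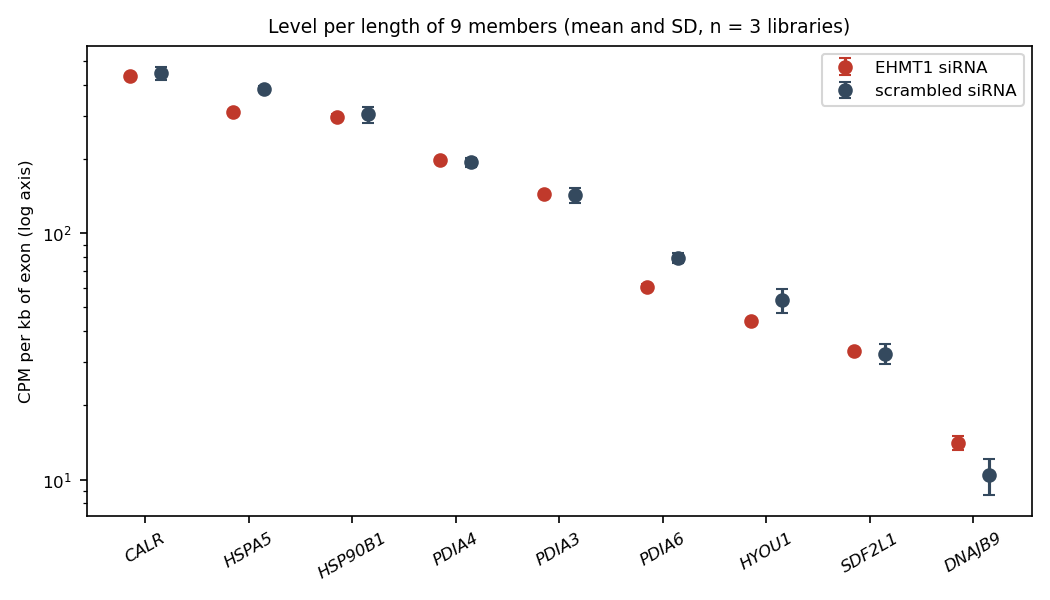
CPM per kilobase of exon (log axis) of 9 of the genes (TXNDC5 left out) from unstranded counts, mean and SD of 3 libraries, with EHMT1 siRNA left of scrambled siRNA. Levels run from 436 with EHMT1 siRNA and 447 with scrambled siRNA for CALR down to 14.1 and 10.4 for DNAJB9.

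The variation between libraries of a group is not the difference known when the genes were chosen, but a call depends on it too. It is therefore given as a description. The SD of log2 CPM was larger among scrambled than among EHMT1 siRNA libraries for 10 of the 10 genes, as it was for 72.5% of all genes tested. Its median over the 10 was 0.025 with EHMT1 siRNA and 0.107 with scrambled siRNA, and over all genes tested 0.073 with EHMT1 siRNA and 0.125 with scrambled siRNA. These medians were not matched for abundance, and 7 of the 10 were above 200 CPM in every library. Scrambled replicate 3 was the lowest of its group for each of the 7 genes above 200 CPM (HSPA5, HYOU1, HSP90B1, CALR, PDIA3, PDIA4 and PDIA6), for PDIA4 by 1 CPM, and the highest for SDF2L1 and TXNDC5. Scrambled replicate 2 was the highest for HYOU1, CALR, PDIA3, PDIA4 and PDIA6 and the lowest for DNAJB9.

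After each group's mean was taken off, the 21 pairs among the 7 abundant genes, a set picked after their values were seen, all had a positive Pearson r over the 6 libraries, with a median of 0.71. Over all 45 pairs of the 10 genes, 25 were positive and the median was 0.12. Among the 21 pairs of abundant genes, the highest was 0.92 for PDIA4 and HYOU1 and the lowest 0.12 for PDIA4 and HSP90B1. HSPA5 went with HSP90B1 at 0.91, PDIA3 at 0.80 and CALR at 0.67. DNAJB9 ran against HYOU1 at -0.83 and PDIA4 at -0.89, and SDF2L1 against HSP90B1 at -0.98 and HSPA5 at -0.95. These are descriptions over 6 libraries that share depth and normalisation, and the 3 scrambled libraries supply most of the spread. Of 6373 other protein-coding genes at an average log2 CPM of 5 or more, 64.4% had a positive r with HSPA5 and 5.15% an r of at least 0.9. The 5 with the highest were HMGN2 and GSR (0.999 each), ANXA5 (0.998), PRR11 (0.995) and ERCC3 (0.994), a nucleosome-binding protein, a glutathione reductase, an annexin, a cell cycle protein and a helicase of the repair and transcription factor TFIIH. Their log2 fold changes were -0.23, -0.02, 0.15, -0.17 and -0.07, and HMGN2 was the 1 called (edgeR adjusted p = 0.0157), which it was not without any single EHMT1 siRNA library.

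**Figure D4:**
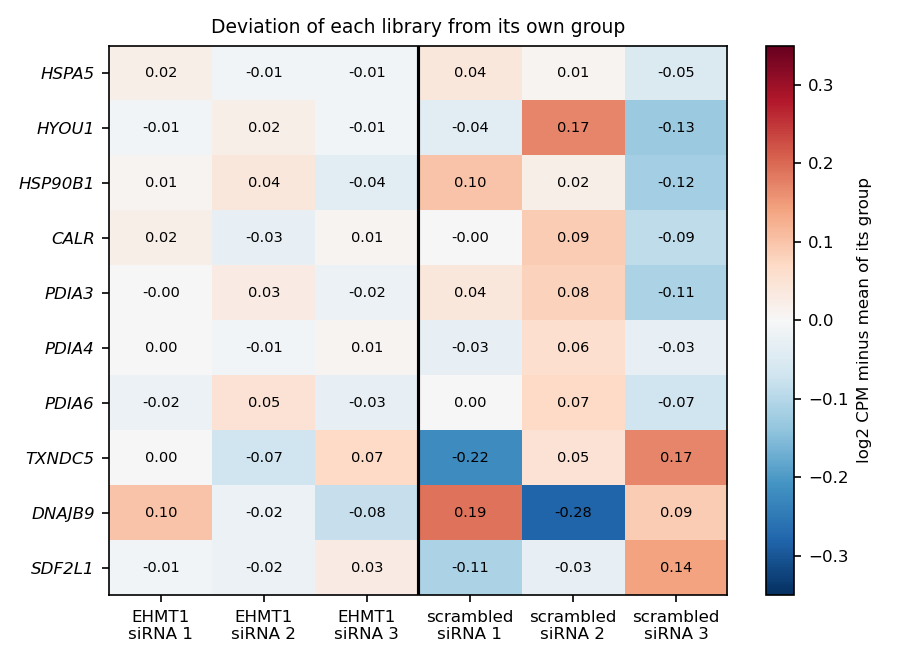
Log2 CPM of each gene in each library minus the mean of that library's group, printed in the cells (red above, blue below the group mean). EHMT1 siRNA libraries deviate by at most 0.10, while scrambled libraries deviate by up to 0.28, in DNAJB9.

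The other genes of ER protein folding were taken from 10 lists by function, written with earlier results of these data known. They held 165 genes, of which 154 were tested. Of these, 15 rose and 8 fell (edgeR adjusted p under 0.05), 14.9% of those tested, close to the 12.4% of all genes, and their median log2 change was 0.01. Of the 18646 genes tested, 4774 had an unadjusted p under 0.05 by edgeR, in either direction. Oligosaccharyltransferase subunits, which add glycans to entering chains, had 0 of 12 called by edgeR, with log2 changes of -0.15 to 0.11; at an unadjusted p under 0.05, 0 were higher and 1 lower, and DESeq2 called 1 lower and limma-voom 0. Prolyl isomerases and collagen chaperones had 0 of 15 called by edgeR, with log2 changes of -0.14 to 0.32; at an unadjusted p under 0.05, 4 were higher and 2 lower, and DESeq2 called 1 lower and limma-voom 0.

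Genes of ER-associated degradation, which carries misfolded proteins to the proteasome, had 8 of 26 that rose and 0 that fell by edgeR, with a median log2 change of 0.08; of all genes tested, 5.81% were called higher and 12.4% in either direction. At an unadjusted p under 0.05, 10 were higher and 3 lower, beside 4774 of the 18646 genes tested in either direction. DESeq2 called 1 lower. The mannose-trimming genes EDEM3, EDEM1 and EDEM2 rose, by 0.37, 0.35 and 0.23 on the log2 scale, as all changes from here on are given (edgeR adjusted p = 0.00089, 0.00965 and 0.0285). EDEM3 had 207 ± 12.1 CPM with EHMT1 siRNA and 161 ± 8.80 CPM with scrambled siRNA (SD, n = 3 each). UBE2J1, a ubiquitin-conjugating enzyme of the ER membrane, rose by 0.25 (edgeR adjusted p = 0.00576). The other risen genes, named after their values were seen, were HERPUD1, HERPUD2, DERL2 and FAM8A1, at log2 changes of 0.20 to 0.22, HERPUD1 not called in the second strand column. The count of risen genes was 2, 1 and 3 without EHMT1 siRNA replicate 1, 2 and 3, and 4 without scrambled replicate 3, when 2 genes fell. EDEM3 was called whichever library was left out, EDEM1 was lost without EHMT1 siRNA replicate 2, UBE2J1 without EHMT1 siRNA replicate 1 or 2, and EDEM2 without each EHMT1 siRNA library or scrambled replicate 3.

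The stress sensors and their factors moved both ways, with 2 of 15 tested that rose and 2 that fell. Of all genes tested, 5.81% were called higher and 6.54% lower. ERN1, which encodes the sensor IRE1, rose to 16.9 ± 1.26 CPM with EHMT1 siRNA, against 12.5 ± 1.39 CPM with scrambled siRNA (SD, n = 3 each; log2 fold change 0.44, edgeR adjusted p = 0.00497). EIF2AK3, which encodes the sensor PERK, fell to 23.7 ± 0.572 CPM with EHMT1 siRNA, against 30.6 ± 3.76 CPM with scrambled siRNA (log2 fold change -0.37, edgeR adjusted p = 0.00736). ATF6, the sensor that becomes a transcription factor on cleavage, changed by -0.19 (edgeR adjusted p = 0.0301), and CREB3L1, a related membrane-bound factor, rose by 0.42 (edgeR adjusted p = 0.0358). ERN1 and EIF2AK3 were lost without EHMT1 siRNA replicate 2. ATF6 was not called with any EHMT1 siRNA library left out, nor without scrambled replicate 1, and CREB3L1 was not called in the second strand column or with any library but scrambled replicate 2 left out.

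Among the other protein disulfide isomerases, 3 of 13 tested fell and 0 rose by edgeR (1 was higher at an unadjusted p under 0.05, and DESeq2 and limma-voom called 0 higher). Without scrambled replicate 2, 4 of these isomerases fell and 1 rose. Of all genes tested, 6.54% were called lower, 5.81% higher and 12.4% in either direction. TMX2, a membrane-bound member, fell to 67.8 ± 2.04 CPM with EHMT1 siRNA, against 83.2 ± 3.45 CPM with scrambled siRNA (SD, n = 3 each; log2 fold change -0.30, edgeR adjusted p = 0.00296). TXNDC16 changed by -0.46 and the thioredoxin-fold protein ERP29 by -0.22 (edgeR adjusted p = 0.00497 and 0.0358), the last not called with any EHMT1 siRNA library left out. PDIA5 at 0.16 did not pass (edgeR adjusted p = 0.116). Of 11 thiol redox genes, 1 rose and 2 fell. QSOX2, a sulfhydryl oxidase of the secretory pathway, fell to 111 ± 1.33 CPM with EHMT1 siRNA, against 170 ± 5.86 CPM with scrambled siRNA (SD, n = 3 each; log2 fold change -0.61, edgeR adjusted p = 2.85e-06). The peroxidase GPX8 changed by -0.20 (edgeR adjusted p = 0.0343) and ERO1B, an oxidase that recharges the isomerases, rose by 0.36 (edgeR adjusted p = 0.027). GPX7 at 0.20 did not pass (edgeR adjusted p = 0.0503). ERO1B was not called with any EHMT1 siRNA library or scrambled replicate 3 left out, and GPX8 with any library but scrambled replicate 2 left out.

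In the remaining ER lists few genes were called. Of all genes tested, 12.4% were called in either direction. SIL1, a nucleotide exchange factor for HSPA5, was the 1 of 16 co-chaperones that rose, by 0.22 (edgeR adjusted p = 0.0456), a call lost in the second strand column and with any library but scrambled replicate 2 left out; DNAJC1, SDF2 and DNAJC25 at -0.34, 0.17 and -0.20 did not pass. Of 9 lectin and glycan folding genes, MAN1B1, a mannosidase, rose by 0.22 and MLEC, a glucose-binding lectin, changed by -0.21 (edgeR adjusted p = 0.0154 and 0.0184), neither called with any EHMT1 siRNA library left out; MOGS at 0.15 and PRKCSH at -0.17 did not pass. KDELR3, a receptor that returns escaped ER proteins, was the 1 of 20 entry and retention genes that rose, by 0.31 (edgeR adjusted p = 0.0094), lost without EHMT1 siRNA replicate 1 or 2. SEC61A1, SEC62 and SRPRB at 0.14, -0.12 and -0.13 did not pass. ITPR1, the inositol trisphosphate-gated calcium channel of the ER, was the 1 of 17 calcium genes that rose, by 0.29 (edgeR adjusted p = 0.00228). RYR1, ATP2A2 and STIM2 at 0.24, 0.16 and 0.19 did not pass, but RYR1 and ATP2A2 were called higher in the second strand column, at 0.26 and 0.17. The count of risen calcium genes was 3 in that column, with DESeq2 and with upper quartile factors, and 2 with limma-voom. P4HA1, called in the second strand column at 0.21, did not pass in the unstranded counts, nor did PPIC, CRTAP and FKBP7 (P4HA1 0.18, PPIC 0.32, CRTAP -0.14 and FKBP7 0.15) or RPN2, DAD1, TUSC3 and OST4 at -0.15, 0.10, 0.10 and -0.13.

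Chaperones of other compartments served as a comparison, in lists also written with earlier results of these data known. Of all genes tested, 6.54% were called lower and 12.4% in either direction, and of those at least as abundant as DNAJB9, 18.2% in either direction. Of 25 cytosolic chaperones tested, 5 fell and 0 rose by edgeR, and 23 had a negative log2 change, with a median of -0.15. At an unadjusted p under 0.05, 16 were lower and 0 higher, beside 4774 of the 18646 genes tested in either direction. DESeq2 called 10 lower and 0 higher. HSP90AA1, the inducible cytosolic HSP90, fell to 1293.5 ± 15.4 CPM with EHMT1 siRNA, against 1789.4 ± 169 CPM with scrambled siRNA (SD, n = 3 each; log2 fold change -0.47, edgeR adjusted p = 0.000231). Its ER relative HSP90B1 was at -0.03. The small heat shock protein HSPB1, the HSP70 exchange factor HSPH1 and the co-chaperone STIP1 changed by -0.40, -0.27 and -0.22 (edgeR adjusted p = 0.00761, 0.00943 and 0.0328). Of 10 mitochondrial chaperones and proteases, 3 fell and 0 rose by edgeR (5 lower and 0 higher at an unadjusted p under 0.05; DESeq2 called 3 and 0), with a median of -0.21: HSPA9, the mitochondrial HSP70, changed by -0.27, LONP1 by -0.28 and DNAJA3 by -0.23 (edgeR adjusted p = 0.00684, 0.0108 and 0.0207), while TRAP1 at -0.21 did not pass (edgeR adjusted p = 0.0752). Leaving out EHMT1 siRNA replicate 2 gave 1 fallen cytosolic and 0 fallen mitochondrial genes, and leaving out scrambled replicate 2 gave 13 and 6. HSPB1 was lost without EHMT1 siRNA replicate 2, HSPH1 and HSPA9 without replicate 2 or 3 of that group, and STIP1, LONP1 and DNAJA3 with any library of it left out. HSP90AA1 was called whichever library was left out.

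**Figure D5:**
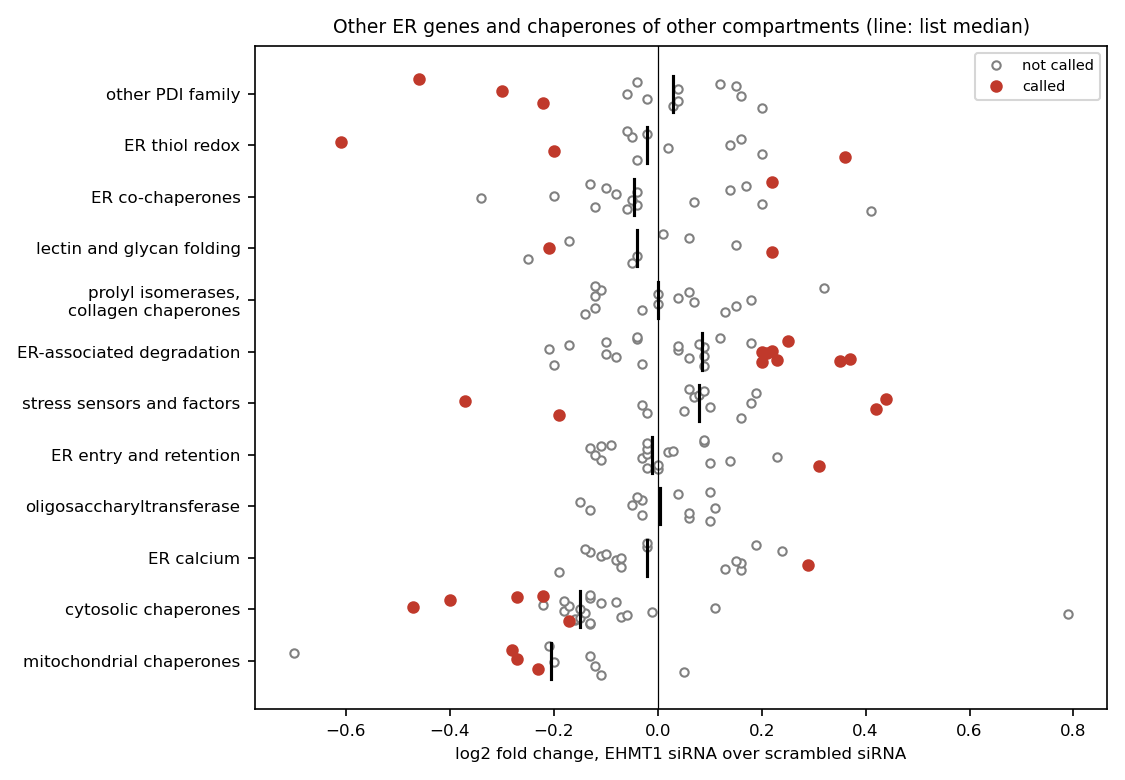
Log2 fold change, EHMT1 siRNA over scrambled siRNA, of each tested gene in the 10 ER lists and 2 lists of other compartments; red points passed an edgeR adjusted p of 0.05 and black lines are list medians. Called genes lie right of 0 in ER-associated degradation and left of 0 in the other isomerases and in both lists of other compartments.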

How the data were processed

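Per the labels, poly-A RNA of RD cells went into NEBNext Ultra libraries. The authors' deposited files hold raw counts per gene, unnormalised, in the layout of STAR's gene table: an unstranded column and 1 per strand. STAR 2.5, HTSeq 0.6.1, CASAVA, bcl2fastq, DESeq2 and the build hg19 are listed, per the submitters' processing notes, without roles. Of 61552 identifiers 58352 are in GENCODE 29 (GRCh38), used for lengths and overlaps only.

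Unstranded counts were fitted over all genes with edgeR 4.0.16 (R 4.3.3), using TMM factors, filterByExpr at its minimum count of 10, a robust quasi-likelihood F test on group, Benjamini-Hochberg adjustment, threshold 0.05. SE is the log2 change over the root of F. CPM uses TMM factors; deviations used log2(CPM + 0.5). The fit was first run on simulated counts that gave both groups the same dispersion. That run cannot show how the fit behaves where the groups differ in spread, as here. Replicates differed by more than sampling noise (chi-square per degree of freedom 2.98 to 3.36 over EHMT1 siRNA pairs, 8.88 to 21 over scrambled pairs). Each was fitted as 1 sample, but such differences do not show whether the replicates were separate cultures.

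The genes and lists were chosen with earlier results of these data known. Named were the 10 genes, EHMT1, up to 4 tested genes per list by smallest adjusted p, and the 5 genes most like HSPA5. Alternatives were RLE and upper quartile factors, other filters, DESeq2 1.42.0, limma-voom (limma 3.58.1), a replicate block, strand columns, adjusted p under 0.01, and leaving out each library. Floors and intervals cover counting error or library spread only.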

Additional observations from a re-analysis of the deposited data

How the results depend on the processing

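The directions of the called ER chaperones and isomerases were the same under every setting run. Of the 10, 1 fell and 0 rose by test in the first strand column, where all genes called numbered 177, against 2304 in the unstranded column, other ER genes 1 fallen and 0 risen, and cytosolic and mitochondrial chaperones 1 fallen; fewer reads lie in that column. At an adjusted p under 0.01, 1017 genes were called, and of the 10 ER chaperones and isomerases 3 fell and 1 rose. At that threshold 4 other ER genes fell and 6 rose, and 4 chaperones of other compartments fell. Leaving out 1 library gave 936 called genes (EHMT1 siRNA replicate 2 omitted) to 3548 (scrambled replicate 2 omitted). It gave 3 to 14 fallen and 2 to 24 risen other ER genes, and 1 to 19 fallen chaperones of other compartments. DESeq2 gave 13 of these. Libraries of the same replicate number had correlations of deviations of 0.056, 0.015 and 0.025. With 3 libraries per group these cannot settle whether the numbers pair the libraries. With a replicate block, 3106 genes were called, 23 other ER genes rose and 14 chaperones of other compartments fell. The cause was not tested. With the longest transcript as length, the scrambled level per kilobase of 8 of the 10 moved by more than its SD, by construction. In the second strand column, chosen after seeing the data, HSPA5 and HSP90B1 changed places with EHMT1 siRNA. Depth limits TXNDC5 most, at 129 to 417 reads per library.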
